A study of Mus musculus with 6 samples.

Results

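Expression of 34 genes of the p53 pathway was followed in small intestinal adenomas of mice that lacked the miR-34 microRNAs and of mice that kept them. The 34 genes were matched by symbol from a list and comprise Trp53 and Trp73, their regulators, and direct p53 targets in arrest, death, repair and metabolism. All 34 were found among the 46078 genes of the count tables. The knockout group had the genotype miR-34a/b/c-/-;ApcMin/+ and the wild-type group the genotype miR-34a/b/c+/+;ApcMin/+, with 3 mice in each. All mice had the mixed strain C57BL6/SV129, were 18 weeks old and carried ApcMin/+, a truncating allele of the Wnt regulator Apc, so the wild-type group is wild-type for miR-34 only. RNA from 3 adenomas was pooled for each mouse and gave a single library, so n is the number of mice. The labels do not name the extent of the miR-34 deletions.

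The transcription factor p53, encoded by Trp53, is stabilised by DNA damage and oncogenic stress and switches on genes that halt the cell cycle, repair DNA, adjust metabolism or kill the cell. Mdm2 and Mdm4 are its main inhibitors, and Mdm2 is itself a p53 target, which closes a negative feedback loop. The miR-34 genes are p53 targets as well, and their products pair through the seed (bases 2 to 8) with sites in the 3′ UTR of messenger RNAs and lower the output of those messages.

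Of the mature strands that the knockout removes, the 3′ strands are not shown, and the 5′ strand of miR-34c was missing from the reference used. The 5′ strands of miR-34a and miR-34b are shown because the letters of the sites below follow from them. Capitals mark the seed, which both share (RefSeq, GRCm38.p6, chromosome 4, 150068473 to 150068494, + strand, and chromosome 9, 51103610 to 51103632, - strand).
miR-34a-5p: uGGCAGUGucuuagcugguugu
miR-34b-5p: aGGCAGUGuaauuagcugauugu
The seed pairs with CACTGCC, and a site was counted as an 8mer where an A follows (CACTGCCA), as a 7mer-m8 where it does not, and as a 7mer-A1 where ACTGCCA stands without the leading C. These letters occurred in the longest annotated 3′ UTR (GENCODE M21) of 10 of the 34 genes, or 29.4%, against 24.8% of the 14723 tested genes with an annotated 3′ UTR. Only Mdm4 and Ei24 held an 8mer (5.88% of the 34, against 6.44% of tested genes). Their sites are shown in 30-base windows with the 8mer in capitals, followed by the single sites of Zmat3 (7mer-A1) and Rrm2b (7mer-m8), the genes with the smallest p-values below.
Mdm4, chr1:132988094-132988123, mm10, - strand: gtggaattttgCACTGCCAtagggaacggt
Ei24, chr9:36779998-36780027, mm10, - strand: aaggcagaaccCACTGCCAagggccctctg
Ei24, chr9:36779339-36779368, mm10, - strand: ttactgttggcCACTGCCAggtcagactgg
Zmat3, chr3:32337324-32337353, mm10, - strand: agacaggatttACTGCCAttaaccactgtt
Rrm2b, chr15:37926638-37926667, mm10, - strand: acttttatctcCACTGCCtcacctgctaat
The other 6 genes with a match were Aen with 3, Ccng1 and Trp53inp1 with 2 each, and Bax, Bbc3 and Sesn1 with 1 each. A match is a description of the letters and does not show that the site is used.

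Promoter windows of RefSeq (250 bases before to 50 after a start site, GRCm38.p6) were matched for 26 of the 34 genes. The p53 response element was searched for as 20 bases made of a motif and its repeat with no spacer. This pattern reads the same on both strands, and elements with a spacer were not searched for. The central C and G of both repeats were required, with at most 1 mismatch elsewhere. The pattern occurred in windows of 2 of these 26 genes, or 7.69%, against 0.0814% of 27025 genes with a window. Both matches are shown with the 20 matching bases in capitals, because they are the closest matches to this pattern among the promoter windows of these genes.
Cdkn1a, chr17:29090923-29090952, GRCm38.p6, + strand: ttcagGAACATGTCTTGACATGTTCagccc
Ccng1, chr11:40755457-40755486, GRCm38.p6, - strand: aggccAGACCTGCCCGGGCAAGCCTtggca
The Cdkn1a match began 51 bases before the first of 2 annotated start sites and 2841 bases before the second. No inference is drawn for the windows without a match.

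Library totals lay between 26375035 and 38354355 counts, so that 3 counts, the limit that a count of 0 allows, were worth between 0.0720 and 0.106 CPM (depth-normalised counts on the TMM scale). Such limits cover counting error only. Mir34a, Mir34b and Mir34c had 0 counts in all 6 libraries, so the genotype labels could not be checked from these rows. The 10 epithelial markers, among them Epcam and Krt8, summed to between 12504 and 16027 CPM in knockout and between 13916 and 18240 CPM in wild-type libraries, and none was at 0. Of these 10, 1 was higher and 9 were lower in knockout (median log2 fold change -0.14), though the sums overlapped. On the first principal component (44.5% of the variance) knockout replicates 1 and 3 lay at -42.7 and -41.6, apart from knockout replicate 2 at 26.7 and the wild-type libraries at -1.68, 44.9 and 14.4. The 8 enterocyte markers summed to 6372, 15991 and 7520 CPM in knockout replicates 1, 2 and 3, against 8172, 8872 and 13036 CPM in wild-type replicates 1, 2 and 3. In pooled tissue, fewer cells of a type and less RNA per cell cannot be told apart.

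None of the p53 pathway genes passed the test between genotypes, and for most of them the knockout and wild-type libraries overlapped. The transcripts of p53, of its inhibitors Mdm2 and Mdm4 and of the classical targets Cdkn1a, Bax and Bbc3 each had groups that overlapped. Of the 34 genes, 33 passed the filter on low counts, and 0 of these 33 had an adjusted p below 0.05 by edgeR's quasi-likelihood test (lowest adjusted p = 0.793), where 16 of all 17254 genes tested passed (0.0927%). DESeq2 and limma-voom called 0 of the 33 as well. With so small a share of all genes called, 0 of 33 does not set the members apart from other genes. The number of all genes called by DESeq2 is given in the last section. At an unadjusted p below 0.05 there were 2 members (6.06%), Zmat3 and Rrm2b, both higher in knockout, against 5.85% of all genes, or 3.27% higher and 2.58% lower. Knockout and wild-type libraries did not overlap for 4 members (12.1%), all higher in knockout, against 11.2% of all genes in either direction. Over either direction both shares are near the background. Toward higher alone they are 6.06% against 3.27% and 12.1% against 5.86%, from 2 and 4 genes. The median log2 fold change was 0.03 over the 33 members and 0.01 over all genes tested, with 18 members above and 15 below 0. Regardless of sign, the median size was 0.24 over the members and 0.19 over all genes tested.

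A p that misses the threshold does not show equal levels, so the intervals are the more informative measure. For 27 of the 33 members (81.8%) the 95% interval of the log2 fold change lay wholly between -1 and 1, which was so for 61.2% of all genes tested. These shares were not matched for count level, on which the width of an interval depends. The 6 members with a wider interval were Gdf15, Ak1, Eda2r, Fas, Sesn1 and Plk3. For Mdm2, the narrowest, the interval ran from -0.17 to 0.30.

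**Figure D1:**
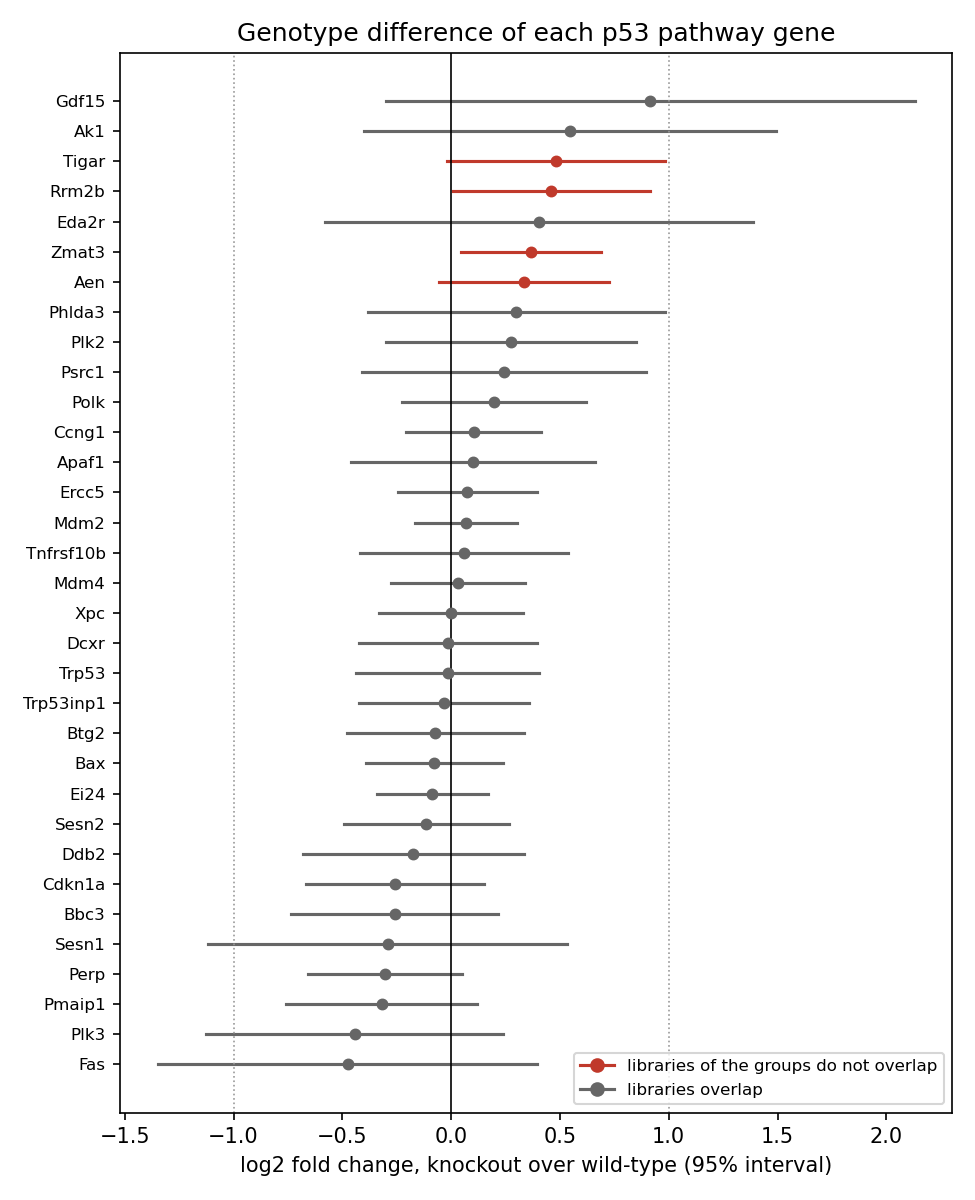
Log2 fold change of knockout over wild-type for each of the 33 tested genes (points) with its 95% interval from edgeR (lines), ordered by size; dotted lines mark -1 and 1. The 4 genes in red (Tigar, Rrm2b, Zmat3 and Aen) are those whose knockout and wild-type libraries do not overlap, and the intervals of Zmat3 and Rrm2b alone leave out 0.

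Trp53 (ENSMUSG00000059552, mm10 chromosome 11, 69580359 to 69591873) had 112, 74.8 and 99.7 CPM in the knockout libraries, against 102, 105 and 83.1 CPM in the wild-type libraries. The groups overlapped fully, with the highest and the lowest library both in the knockout group. The log2 fold change was -0.02 ± 0.18 (SE, n = 3 each, adjusted p = 0.987, edgeR), with a 95% interval from -0.44 to 0.41. A processed pseudogene of Trp53, Trp53-ps, matches it at 97.7% over 353 bases and held 0 counts. Trp73, the gene of the relative p73, was at the limit of detection, with 0, 3 and 9 counts in knockout and 0, 1 and 0 counts in wild-type libraries, and it was not tested. Its row overlaps the opposite-strand transcript Trp73os, which had 3 counts in all.

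Among the regulators that feed back on p53, Mdm2, the ubiquitin ligase that marks p53 for degradation, was the steadiest of all members. It had 64.0, 67.3 and 65.4 CPM in knockout libraries, against 58.9, 63.9 and 65.0 CPM in wild-type libraries (log2 fold change 0.07 ± 0.10, SE, adjusted p = 0.885, edgeR). Mdm4, the non-degrading inhibitor whose 3′ UTR holds the 8mer above, had 79.0, 89.8 and 88.6 CPM in knockout libraries, against 79.0, 96.3 and 76.9 CPM in wild-type libraries. The knockout values lay inside or at the edge of the wild-type range, and the log2 fold change was 0.03 ± 0.13 (95% interval -0.28 to 0.34, adjusted p = 0.965, edgeR). Ccng1, which encodes cyclin G1, a partner of a phosphatase that activates Mdm2, averaged 116 ± 13.2 CPM in knockout mice and 108 ± 8.65 CPM in wild-type mice (SD, n = 3 each). Trp53inp1, a stress protein that promotes p53 phosphorylation, averaged 74.9 ± 15.3 CPM in knockout mice and 76.6 ± 5.05 CPM in wild-type mice.

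Zmat3, an RNA-binding zinc finger protein and p53 target, had the smallest p of the members. Its libraries gave 47.8, 37.8 and 45.5 CPM in knockout mice, against 37.2, 30.8 and 33.6 CPM in wild-type mice. The groups were separate by a narrow margin, between knockout replicate 2 and wild-type replicate 1. The log2 fold change was 0.37 ± 0.14 (SE, 95% interval 0.05 to 0.69, unadjusted p = 0.0299, adjusted p = 0.793, edgeR). Short stretches of Zmat3 of up to 142 bases match other transcripts at 95% identity or more, so a part of its reads could be shared.

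**Figure D2:**
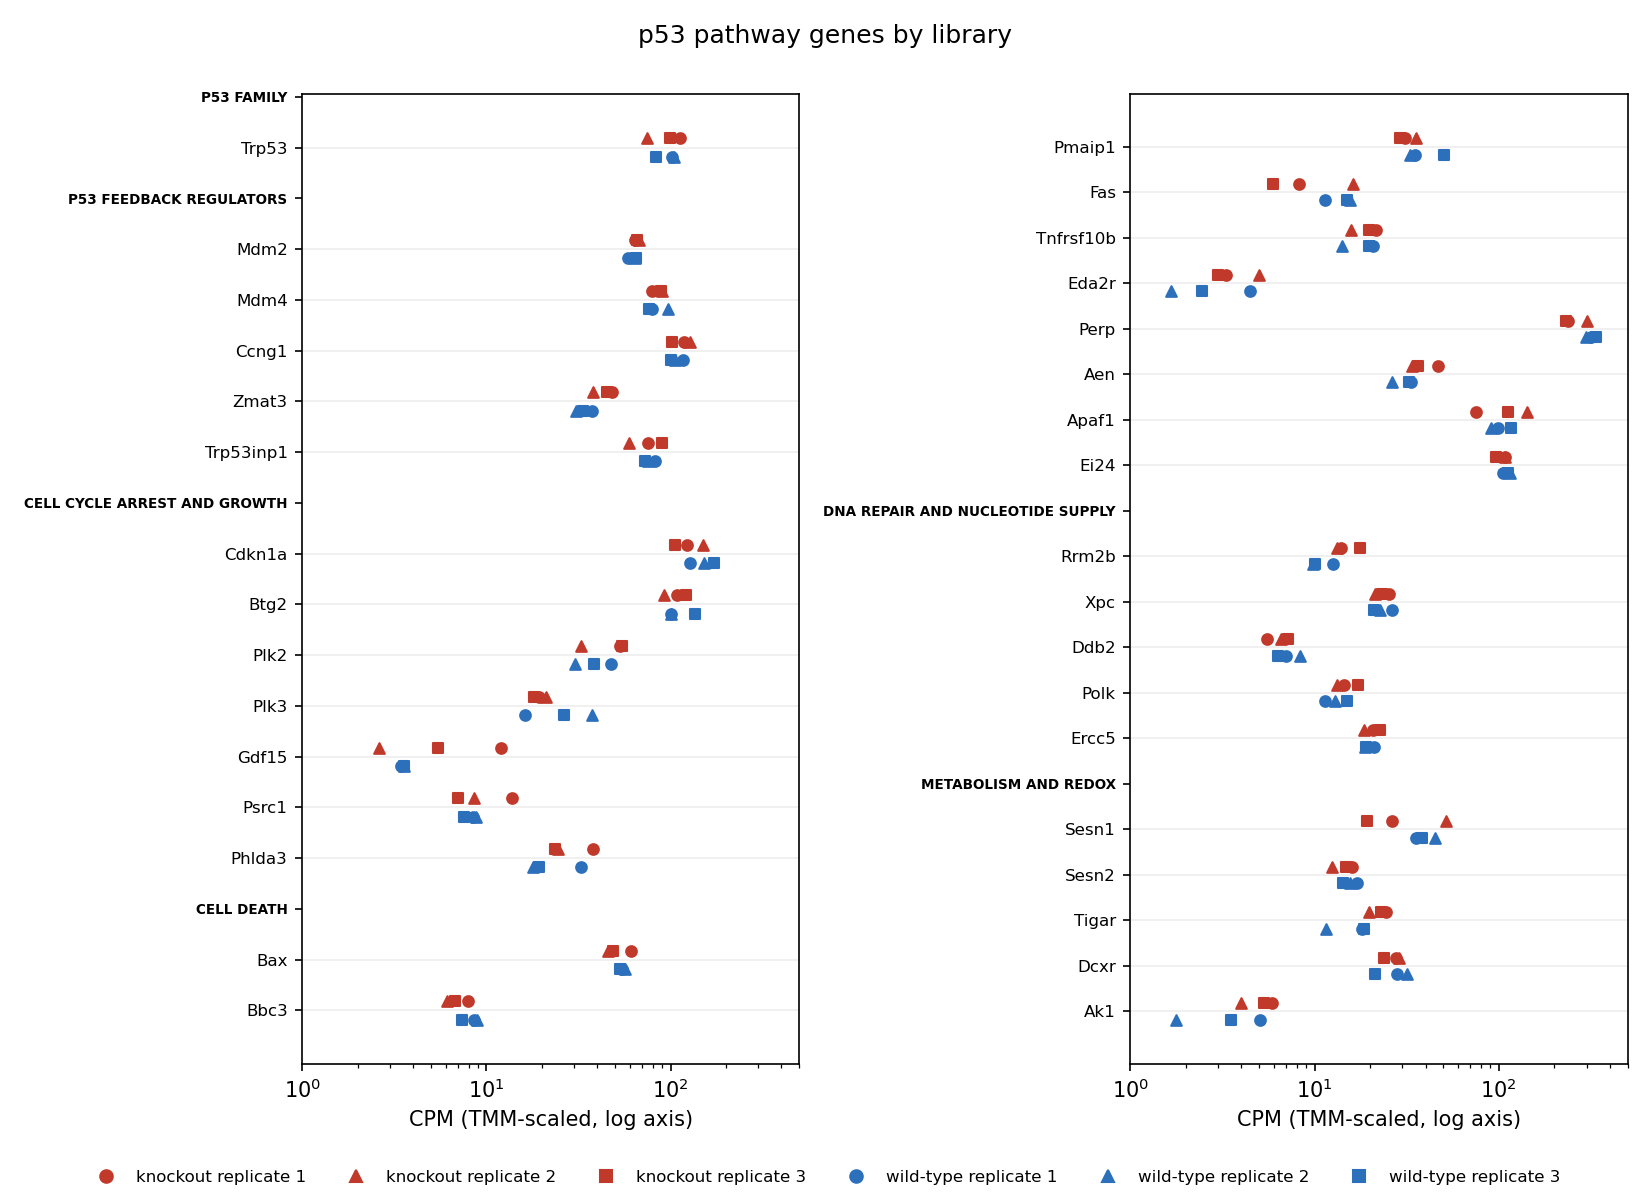
CPM (TMM-scaled, log axis) of the 33 tested genes in each library, with knockout mice in red above wild-type mice in blue and the marker shape giving the replicate number; genes are grouped by role. In most rows the red and blue points share the same range, while Gdf15, Fas and Sesn1 are spread widest within the knockout mice.

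Cdkn1a encodes p21, the cyclin-dependent kinase inhibitor through which p53 arrests the cycle. It had 122.8, 149 and 106 CPM in knockout libraries, against 128, 153 and 172 CPM in wild-type libraries. The lowest libraries were knockout replicates 1 and 3, and the value of knockout replicate 2 fell between those of wild-type replicates 1 and 2. The log2 fold change was -0.26 ± 0.17 (SE, 95% interval -0.67 to 0.15, adjusted p = 0.811, edgeR). Btg2, an antiproliferative cofactor of the mRNA deadenylase complex, averaged 107 ± 14.7 CPM in knockout mice and 113 ± 20.8 CPM in wild-type mice (SD, n = 3 each). The polo-like kinases Plk2 and Plk3 had log2 fold changes of opposite sign, 0.28 ± 0.24 for Plk2 and -0.44 ± 0.29 for Plk3 (SE), each with overlapping groups. The difference between these 2 genes was not tested.

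Gdf15, a secreted stress cytokine of the TGF-beta family, had the largest log2 fold change of the members and the widest spread. It had 11.9, 2.61 and 5.45 CPM in knockout libraries, against 3.45, 3.59 and 3.55 CPM in wild-type libraries. The wild-type mice were nearly identical, whereas knockout mice held both the highest and the lowest value. By edgeR the log2 fold change was 0.92 ± 0.51 (SE, 95% interval -0.30 to 2.13, adjusted p = 0.802), and it was 0.19 without knockout replicate 1. Psrc1, a spindle protein gene, and Phlda3, an inhibitor of Akt signalling, were likewise highest in knockout replicate 1, at 13.7 and 37.7 CPM, and their groups overlapped. Knockout replicate 1 held the highest value of all 6 libraries for 10 of the 33 members. Proliferation markers summed highest in that library too, at 1307 CPM, against 974 and 1174 CPM in knockout replicates 2 and 3 and 1028, 925 and 953 CPM in wild-type replicates 1, 2 and 3. Their part in these values was not tested.

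The death genes leaned in no common direction, with 4 of 10 above and 6 below a log2 fold change of 0. Bax, the effector that permeabilises the mitochondrial outer membrane, had 61.1, 45.8 and 48.9 CPM in knockout libraries, against 54.5, 56.7 and 53.2 CPM in wild-type libraries (log2 fold change -0.08 ± 0.13, SE, adjusted p = 0.903, edgeR). The wild-type values lay within the knockout range. Bbc3, which encodes the BH3-only protein Puma, had 7.97, 6.08 and 6.72 CPM in knockout libraries, against 8.54, 8.94 and 7.36 CPM in wild-type libraries (log2 fold change -0.26 ± 0.20, SE, adjusted p = 0.814, edgeR). Only knockout replicate 1 reached into the wild-type range. Pmaip1, which encodes the BH3-only protein Noxa, averaged 31.8 ± 3.24 CPM in knockout mice and 39.7 ± 9.60 CPM in wild-type mice (SD, n = 3 each). Ei24, an endoplasmic reticulum protein gene with a pair of 8mers for miR-34, averaged 104 ± 6.36 CPM in knockout mice and 111 ± 4.65 CPM in wild-type mice. Its log2 fold change was -0.09 ± 0.11 (SE, 95% interval -0.34 to 0.17, adjusted p = 0.867, edgeR).

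Fas, the death receptor, had 8.25, 16.1 and 5.98 CPM in knockout libraries, against 11.4, 15.6 and 15.0 CPM in wild-type libraries. Knockout replicate 2 was the highest of the 6 libraries, and knockout replicates 1 and 3 were the lowest. The log2 fold change was -0.48 ± 0.37 (SE, 95% interval -1.35 to 0.40, adjusted p = 0.814, edgeR). Tnfrsf10b, the mouse TRAIL receptor, averaged 18.9 ± 2.92 CPM in knockout mice and 18.2 ± 3.67 CPM in wild-type mice (SD, n = 3 each). Its longest transcript shares stretches of at least 100 bases at 95% identity or more with 87 other genes, so its count is uncertain. Eda2r, a TNF receptor family gene on chromosome X, was low, at 3.77 ± 1.07 CPM in knockout mice and 2.85 ± 1.43 CPM in wild-type mice, with overlapping libraries.

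Perp, a tetraspan protein gene of desmosomes and of p53-driven death, was the most abundant member. It had 239, 301 and 233 CPM in knockout libraries, against 315, 299 and 339 CPM in wild-type libraries. Knockout replicate 2 alone lay in the wild-type range, and the log2 fold change was -0.30 ± 0.15 (SE, unadjusted p = 0.0810, adjusted p = 0.793, edgeR). Within each genotype the libraries had the same order for Perp as for the epithelial marker sums, whose part in this value was not tested. Aen, an exonuclease that degrades DNA during apoptosis, had 46.6, 33.6 and 36.4 CPM in knockout libraries, against 33.4, 26.4 and 32.7 CPM in wild-type libraries. The groups were just apart, between knockout replicate 2 and wild-type replicate 1, and edgeR put the log2 fold change at 0.33 ± 0.17 (SE, 95% interval -0.06 to 0.72, adjusted p = 0.793). Apaf1, the scaffold of the apoptosome, ranged from 75.0 to 143 CPM within the knockout mice and from 90.4 to 117 CPM within the wild-type mice.

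Of the genes of DNA repair and nucleotide supply, Rrm2b stood first by p. It encodes the p53-inducible small subunit of ribonucleotide reductase, which supplies deoxynucleotides outside S phase. It had 13.9, 13.2 and 17.7 CPM in knockout libraries, against 12.6, 9.82 and 10.05 CPM in wild-type libraries. The groups were separate, and the log2 fold change was 0.46 ± 0.19 (SE, 95% interval 0.01 to 0.91, unadjusted p = 0.0467, adjusted p = 0.793, edgeR). The nucleotide excision repair gene Xpc had a log2 fold change of 0.00 ± 0.14 (SE), with 23.3 ± 2.09 CPM in knockout mice and 23.3 ± 2.62 CPM in wild-type mice (SD, n = 3 each). Ercc5, an excision repair nuclease, and Polk, a translesion polymerase, had log2 fold changes of 0.07 ± 0.14 and 0.20 ± 0.18 (SE). Ddb2, the damage sensor of excision repair, is uncertain. Its 1368 counts over the 6 libraries overlap on the opposite strand with Acp2, which had 7671, and whether counting used strand is not stated.

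Among the metabolic members, Tigar, a phosphatase that lowers glycolytic flux, had 24.4, 19.7 and 23.0 CPM in knockout libraries, against 18.0, 11.5 and 18.6 CPM in wild-type libraries. All knockout libraries lay above all wild-type libraries, with a log2 fold change of 0.48 ± 0.21 (SE, 95% interval -0.02 to 0.98, unadjusted p = 0.0568, adjusted p = 0.793, edgeR). Sesn1 and Sesn2 encode sestrins, stress proteins that restrain mTORC1. Sesn1 had 26.4, 51.6 and 19.2 CPM in knockout libraries, against 35.6, 45.1 and 38.2 CPM in wild-type libraries. Its highest library was knockout replicate 2 and its lowest were knockout replicates 1 and 3, as for Fas (Sesn1 log2 fold change -0.29 ± 0.35, SE, adjusted p = 0.859, edgeR). Sesn2 averaged 14.4 ± 1.79 CPM in knockout mice and 15.6 ± 1.31 CPM in wild-type mice, and Dcxr, a carbonyl reductase, 26.8 ± 2.60 CPM in knockout mice and 27.0 ± 5.24 CPM in wild-type mice (SD, n = 3 each). Ak1, adenylate kinase of the cytosol, ranged from 3.96 to 5.85 CPM in the knockout libraries and from 1.76 to 5.06 CPM in wild-type libraries.

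For Zmat3, Rrm2b, Tigar and Aen, the members with separate groups, wild-type replicate 2 was the lowest of the 6 libraries. Without it the log2 fold changes were 0.30 for Zmat3, 0.39 for Rrm2b, 0.29 for Tigar and 0.23 for Aen, all positive, with unadjusted p from 0.0980 to 0.237. That library also had the lowest sums of fibroblast and smooth muscle markers. The 10 fibroblast markers (9 higher and 1 lower in knockout) summed to 1730, 846 and 2999 CPM in knockout replicates 1, 2 and 3, against 1170, 508 and 1469 CPM in wild-type replicates 1, 2 and 3. The 8 smooth muscle markers (8 of 8 higher in knockout) summed to 789, 705 and 669 CPM in the knockout libraries and 613, 270 and 423 CPM in the wild-type libraries. The smooth muscle sums did not overlap between genotypes, and the fibroblast sums did. The 8 MHC class II and dendritic cell markers (8 of 8 lower in knockout) summed to 310, 690 and 294 CPM in the knockout libraries and 1234, 1248 and 1043 CPM in the wild-type libraries. The 8 endothelial markers (7 higher and 1 lower in knockout) summed to 414, 358 and 499 CPM in the knockout libraries and 323, 264 and 286 CPM in the wild-type libraries, without overlap and again lowest in wild-type replicate 2. Of the 10 B and plasma cell markers, 9 were tested (1 higher and 8 lower in knockout), and the sums of 1808, 5577 and 5200 CPM in the knockout libraries lay below those of 6458, 10416 and 8702 CPM in the wild-type libraries. The 8 mast cell markers (8 of 8 higher in knockout) summed to 687, 475 and 253 CPM in the knockout libraries and 218, 85.0 and 451 CPM in the wild-type libraries, which overlapped. No marker of these 6 lists was at 0 in all libraries, and their part in these values was not tested.

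How far members differed depended on which mouse was left out. Several differed more between genotypes once knockout replicate 2, which stood apart from its group, was left out. Without it, 10 of 33 members (30.3%) had an unadjusted p below 0.05, where 17.9% of all genes tested did, and again 0 passed after adjustment. By edgeR, Fas then stood at -0.98 on the log2 scale (adjusted p = 0.143) and Sesn1 at -0.80 (adjusted p = 0.126, the lowest of any member under the settings run). Gdf15 reached 1.30, while Cdkn1a and Perp came to -0.40 and -0.43, and Plk2, Tigar, Rrm2b, Zmat3 and Aen lay between 0.43 and 0.57. Fas and Sesn1 were highest in the library with the highest sum of enterocyte markers. The 10 T and NK cell markers (2 higher and 8 lower in knockout) also summed highest there, at 97.3 CPM, against 34.2 and 37.8 CPM in knockout replicates 1 and 3 and 44.3, 62.0 and 76.0 CPM in wild-type replicates 1, 2 and 3. The part of either cell type in these values was not tested.

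The number of members at an unadjusted p below 0.05 depended on the setting. Leaving out a knockout mouse gave 0 for replicate 1 (4.49% of all genes) and 0 for replicate 3 (3.07%). Leaving out a wild-type mouse gave 4 for replicate 1 (6.62% of all genes), 0 for replicate 2 (3.06%) and 1 for replicate 3 (5.91%). It was 0 with library size alone as the scaling (5.32% of all genes), 4 with a sex term (6.55%) and 4 with the replicate number as a block (9.46%).

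**Figure D3:**
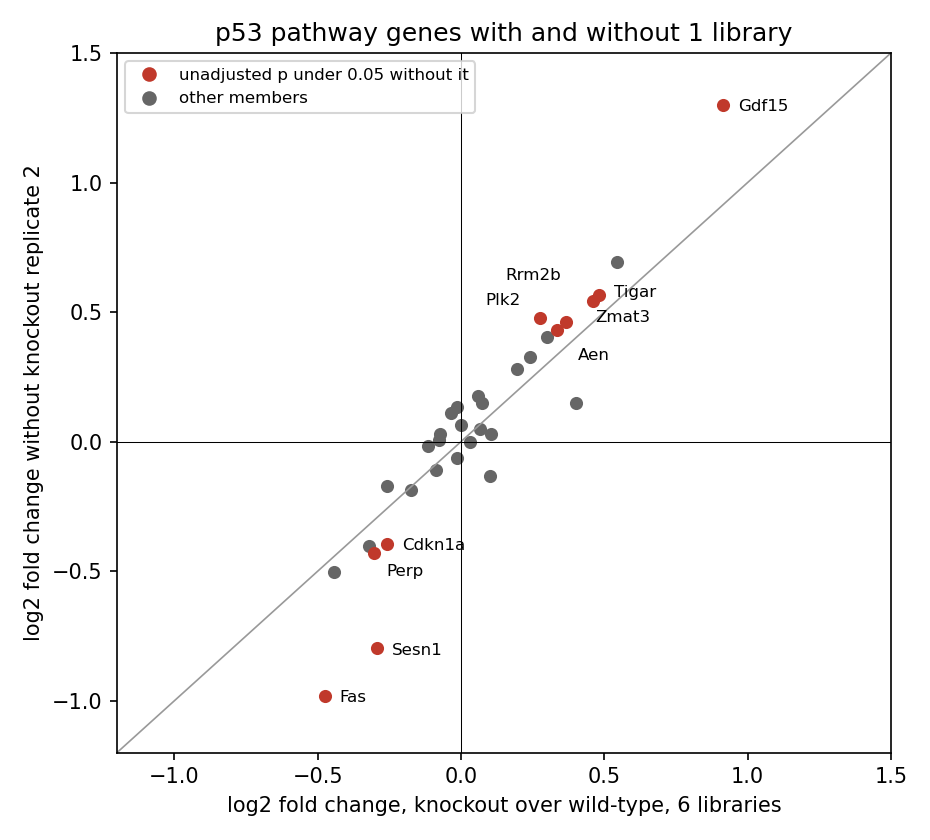
Log2 fold change (knockout over wild-type) of each of the 33 genes with all 6 libraries (horizontal axis) and without knockout replicate 2 (vertical axis); the grey diagonal marks equal values and red points have an unadjusted p below 0.05 without that library. Sesn1 and Fas lie furthest below the diagonal, at -0.80 and -0.98 on the vertical axis, and Gdf15 above it at 1.30.

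Members with a miR-34 seed match were set beside those without. Among the 10 tested members with a match the median log2 fold change was 0.00, and 5 lay above and 5 below 0, in a range from -0.29 (Sesn1) to 0.46 (Rrm2b). The 23 without a match had a median of 0.06. Over the 14723 tested genes with an annotated 3′ UTR, the medians were 0.06 for the 3653 with a match and 0.01 for the 11070 without. Genes with and without a match were not matched for 3′ UTR length, and the difference was not tested. Zmat3 and Rrm2b, shown above with their sites, had positive values, and the 8mer genes Mdm4 and Ei24 had 0.03 and -0.09.

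Levels were compared between genes only per length, as CPM per kb of annotated exon. Perp ranked first at 132 ± 19.2 in knockout and 163 ± 10.2 in wild-type adenomas (SD, n = 3 each). Btg2, Cdkn1a, Bax and Ccng1 followed between 33.0 and 39.0 in knockout and between 30.7 and 42.5 in wild-type. In knockout adenomas neighbours in this order differed by less than the sum of their SDs. In wild-type adenomas Cdkn1a came before Btg2, and Bax, at 34.8 ± 1.11, exceeded Ccng1, at 30.7 ± 2.46 CPM per kb, by more than that sum. Trp53 came sixth, at 23.6 ± 4.70 CPM per kb in knockout mice and 23.9 ± 2.91 CPM per kb in wild-type mice. Mdm2 stood at 12.9 ± 0.321 CPM per kb in knockout mice and 12.3 ± 0.635 in wild-type mice. Mdm4 stood at 5.80 ± 0.400 CPM per kb in knockout mice and 5.68 ± 0.722 in wild-type mice. Per kb, Mdm2 exceeded Mdm4 by more than the spread between mice in both genotypes. This order rests on the annotated exon lengths, 5083 bases for Mdm2 and 14798 for Mdm4, with all isoforms together. In CPM the order was reversed, with Mdm4 at 85.8 in knockout and 84.1 in wild-type mice. Mdm2 had 65.6 and 62.6 CPM. Rrm2b, at 1.63 ± 0.264 CPM per kb in knockout mice and 1.19 ± 0.172 in wild-type mice, and Eda2r, at 0.639 ± 0.181 CPM per kb in knockout mice and 0.483 ± 0.243 in wild-type mice, were the lowest tested members.

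**Figure D4:**
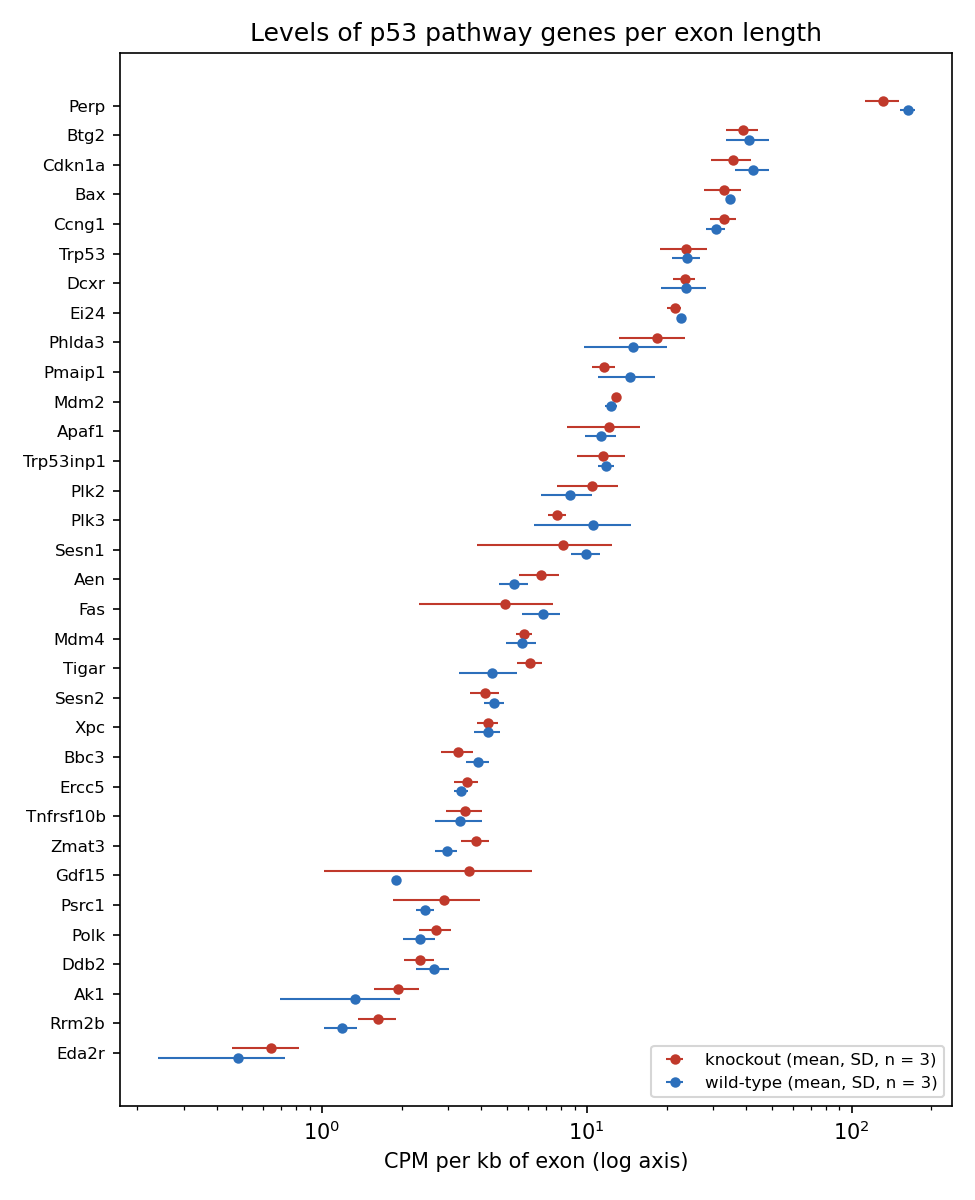
Mean CPM per kb of exon (log axis) of the 33 tested genes in knockout mice (red, upper point) and wild-type mice (blue, lower point), with SD over 3 mice each, ordered by level. Perp stands apart at the top (132 in knockout and 163 in wild-type), and levels run down to Eda2r at 0.639 in knockout and 0.483 CPM per kb in wild-type.

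Further genes of the pathway were read from 3 lists. Of 36 tested among 40 other p53 targets, 0 passed after adjustment, where 0.0927% of all genes did. Groups did not overlap for 3 of them (8.33%), against 11.2% of all genes. At an unadjusted p below 0.05, 1 was higher (2.78%) and 0 were lower, against 5.85% of all genes in either direction. That gene was Igfbp3, which encodes a secreted IGF-binding protein, with 97.7, 81.9 and 124 CPM in knockout libraries, against 54.1, 50.9 and 64.1 CPM in wild-type libraries (log2 fold change 0.84 ± 0.18, SE, adjusted p = 0.581, edgeR). The groups did not overlap. Smooth muscle and endothelial marker sums, given above, were likewise higher in knockout without overlap, and their part in this value was not tested. In this list Rprm had the largest log2 fold change, 1.30 ± 0.58 (SE) on 83 counts in all, and Casp1, an inflammatory caspase, the smallest, -0.47 ± 0.28. The list's median was 0.10.

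Of the 23 tested among 24 upstream kinases and cofactors, 18 lay above and 5 below a log2 fold change of 0, with a median of 0.16, and 5 (21.7%) had groups without overlap, 3 higher and 2 lower in knockout, where 11.2% of all genes did. By edgeR, 0 passed after adjustment and 1 (4.35%) had an unadjusted p below 0.05, where 5.85% of all genes did. This was the receptor kinase Axl, higher in knockout at 0.67 ± 0.23 (log2, SE, adjusted p = 0.793, edgeR). A place in this list does not show that Axl acts on p53. Its libraries gave 43.4, 35.7 and 56.0 CPM in knockout mice, against 28.9, 21.5 and 34.2 CPM in wild-type mice, with no overlap. Within each genotype the libraries had the same order for Axl as for the fibroblast marker sums, and smooth muscle and endothelial sums were also higher in knockout without overlap. Their part in this value was not tested. The smallest value was that of Ppp1r13b, a p53 cofactor of the ASPP family, at -0.20 ± 0.14. The damage kinase Atm had 24.7, 25.9 and 32.0 CPM in knockout libraries, against 24.6, 17.4 and 20.2 CPM in wild-type libraries, which did not overlap by a narrow margin; it was chosen after its values were seen. Sirt1, a p53 deacetylase, had a log2 fold change of 0.03 ± 0.11.

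The 25 genes repressed through p21 and the DREAM complex, mostly of mitosis, centred on a log2 fold change of 0.18 (median). Of these, 21 were above and 4 below 0, where 51.1% of all genes tested lay above 0. The knockout mice did not lean alike. Most of these genes, though not Foxm1, were highest in knockout replicate 1, and many were lowest in knockout replicate 2. Cdk1, for example, had 78.5, 42.6 and 58.2 CPM in knockout libraries, against 52.8, 52.5 and 53.1 CPM in wild-type libraries. None passed after adjustment (0 by edgeR), and groups did not overlap for 3 (12.0%), against 11.2% of all genes. At an unadjusted p below 0.05, 1 was higher (4.0%), against 5.85% of all genes in either direction. That was Bub1, a spindle checkpoint kinase, with 30.7, 22.7 and 28.7 CPM in knockout libraries, against 22.3, 21.4 and 19.004 CPM in wild-type libraries (log2 fold change 0.39 ± 0.15, SE, adjusted p = 0.793, edgeR). Top2a had the largest value, 0.40 ± 0.19, and the phosphatase gene Cdc25c the smallest, -0.08 ± 0.24. This list shares 4 genes (Ccna2, Ccnb1, Cdk1 and Top2a) with the proliferation markers, or 16% of its 25 genes and 40% of those 10 markers. Top2a alone gave 389 of the 1307 CPM of the proliferation sum in knockout replicate 1.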

How the data were processed

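RNA was sequenced from small intestinal adenomas of 3 knockout and 3 wild-type mice, grouped by sample title. The authors deposited raw whole-number counts per Ensembl gene. Per the submitters' processing notes, the tools were TopHat2 2.1.0 and HTSeq 0.6.1 and the build was mm10. Whether counting used strand or multiply aligned reads is not stated there. Symbols and exon lengths came from GENCODE M21, and gene coordinates from the deposited tables, turned to 1-based. The gene coordinates of both sources were the same for 21 of the 34 members.

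Genes were filtered with filterByExpr (17254 left), normalised by TMM and tested with edgeR 4.0.16 in R 4.3.3 (quasi-likelihood, robust, Benjamini-Hochberg over all genes at 0.05). SE was the log2 fold change over the square root of F. The fit was tested on simulated data with 16865 genes. It recovered 20 of 100 genes set to a log2 fold change of 1 in size. At a size of 2 it recovered 81 of 100, and there were 8 false calls. Copies were sought with BLAST 2.17.0. P-values measure the spread between mice. Alternatives were other scalings, filters, tools (DESeq2 1.42.0, limma-voom 3.58.1), a replicate block, a sex term and each mouse left out. Sex was inferred from the counts of Xist against those of Y-linked genes, which gave 1 male in each group. Members and lists were chosen with earlier results of these data known. Full statistics are given for members with an unadjusted p below 0.05 or separate groups, and for Trp53, Mdm2, Cdkn1a, Bax, Bbc3 and Fas. In the pathway lists the genes at an unadjusted p below 0.05 and the largest and smallest log2 fold change are named. Detail on other genes was chosen after their values were seen.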

Additional observations from a re-analysis of the deposited data

How the results depend on the processing

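Under every setting run, 0 members were called. The number of all genes called was 16, against 110 with DESeq2 and between 9 (without knockout replicate 1) and 41 (without knockout replicate 2) with a mouse left out. Members at an unadjusted p below 0.05 numbered 2, against 0 with library size alone, 4 with a sex term and between 0 and 10 with a mouse left out (10 without knockout replicate 2). The median log2 fold change of the members was 0.03, against 0.10 with library size alone, a scaling that moved all genes by 0.07, and it ran from -0.046 to 0.055 with a mouse left out. The sign changed in at least 1 of 15 settings for 11 members, the largest of which was 0.24 (Psrc1), and in none for the other 22. Whether replicate numbers pair samples was not settled, and the main fit did not pair them. The deviations of same-numbered libraries correlated at 0.27, 0.31 and 0.09. Those of differently numbered libraries of the 2 genotypes correlated at between -0.36 and 0.23. With a replicate block 4 members had an unadjusted p below 0.05 (9.46% of all genes), 14 genes were called in all and 0 members. A miR-34 seed match of any kind was held by 30.3% of tested members and an 8mer by 6.06%. Intervals of Gdf15, Ak1, Eda2r, Fas, Sesn1 and Plk3 allow changes beyond 2-fold at this number of mice.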
